A study of Mus musculus with 11 samples.

Results

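Insulin-like growth factor (IGF) signalling genes were followed in bone marrow endothelial cells (ECs) of mice carrying mammary tumour metastases. The 9 genes were Igf1, the receptors Insr, Igf1r and Igf2r, and the binding proteins Igfbp3, Igfbp4, Igfbp5, Igfbp6 and Igfbp7. They were chosen by symbol from 23461 named genes of the count table, with earlier results on the same libraries already known. Their values and fits are therefore given as a description. The cells were CD31hi EMCNhi ECs of BALB/c mice aged 8 to 10 weeks, sorted after cells positive for CD45 or Ter119 had been gated out. High CD31 and endomucin (EMCN) is the surface signature by which type H capillaries are sorted from healthy bone. The gate does not by itself show that the met cells were such capillaries. Met libraries (n = 3) came from marrow areas infiltrated by 4T1.2 mammary tumour cells expressing RFP, and non-met libraries (n = 6) came from adjacent areas of burdened bones without tumour. Control libraries (n = 2) came from age-matched mice without tumour. Each library came from a pool of mice, which could be as few as 1. The 6 non-met libraries came from 4 pools of burdened mice, of which 3 also gave the met libraries. Non-met 1 and 5 shared 1 pool, and non-met 2 and 6 shared another with met 1, so the non-met libraries were not 6 independent groups of animals.

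The libraries held 733342 to 19539761 reads in genes, with non-met 4 the shallowest and control 1 the deepest. The amount of RNA was low, and 7618 to 11596 genes had a read in a library. All 15 endothelial markers of a list had more than 3 reads in every library, and their sum ranged from 11011 to 21883 CPM, the usual scale of counts relative to library size, here after TMM scaling. By group it ranged from 11011 to 16186 CPM in control, from 11925 to 21883 CPM in non-met and from 17979 to 21545 CPM in met libraries. Summed arterial markers, of which 7 to 11 of 12 had more than 3 reads, ranged from 635 to 1071 CPM in control, from 1045 to 1417 CPM in non-met and from 1634 to 1888 CPM in met libraries. Summed sinusoidal markers overlapped, at 11016 to 14757 CPM in control, 9237 to 16988 CPM in non-met and 8600 to 14455 CPM in met libraries. Summed granulocyte markers ranged from 35.5 to 204 CPM in met, from 397 to 5148 CPM in non-met and from 80.2 to 388 CPM in control libraries. Summed markers of stromal, osteolineage and mural cells were highest in control 2, at 11429 CPM. Their range was 4436 to 11429 CPM in control, 1413 to 4952 CPM in non-met and 578 to 3396 CPM in met libraries. Bglap was at 0 in all libraries, whereas Cxcl12, Lepr and Adipoq reached 8721, 979 and 453 CPM in control 2. Summed monocyte and macrophage markers ranged from 994 to 1579 CPM in control, from 539 to 1342 CPM in non-met and from 307 to 1084 CPM in met libraries. Of these 12 markers, C1qa, C1qb, C1qc and Ccr2 were at 0 in all libraries, and Csf1r and Adgre1 were highest in non-met 2, at 69.5 and 62.6 CPM. Csf1r and Adgre1 were at 0 in both controls, where 5 and 4 of the 12 markers had more than 3 reads. Traces of the epithelial keratins Krt8, Krt18 and Krt19 were above 5 CPM in 7 libraries, comprising non-met 3 to 6 and all met libraries, and below it in both controls and non-met 1 and 2. Non-met 2 lay just under this limit, at 4.58 CPM before TMM scaling. The full list of 9 mammary epithelial markers did not fully separate the same libraries. Its sum ranged from 1.03 to 19.5 CPM in control, from 1.44 to 146 CPM in non-met and from 11.8 to 75.4 CPM in met libraries. Control 2 (19.5 CPM) and non-met 2 (17.1 CPM) exceeded met 3 (11.8 CPM). The keratin split was found in the data. It put all met libraries on 1 side and both controls on the other, so met and control could be compared within neither side. A model term for the split could still be fitted, because non-met libraries lay on both sides.

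IGF1 and IGF2 act through the IGF-1 receptor, a tyrosine kinase related to the insulin receptor, and the pair of receptors can also combine as hybrids. The IGF-2 receptor has no kinase domain and carries IGF2 and mannose 6-phosphate-tagged enzymes to lysosomes. Secreted binding proteins hold IGFs in tissue and blood, and proteases such as PAPP-A release them by cleavage. IGFs are abundant in bone matrix, and in healthy bone type H vessels lie next to bone-forming cells.

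The genes differed widely in level. Per length, as RPKM (CPM divided by the counted exon length in kilobases), Igfbp7 was highest, with a mean of 1923 over the 11 libraries, followed by Igfbp4 at 791, Igfbp3 at 411, Igfbp5 at 191 and Insr at 111. At least 95.7% of the 11948 tested genes had a lower mean than each of these 5. The library ranges of neighbours in this order overlapped for Igfbp7 and Igfbp4 (1219 to 3318 and 502 to 1397 RPKM), for Igfbp4 and Igfbp3 (58.1 to 965 RPKM for Igfbp3), for Igfbp3 and Igfbp5 (54.7 to 462 RPKM for Igfbp5) and for Igfbp5 and Insr (32.4 to 222 RPKM for Insr). In control 2, Igfbp4 (1397 RPKM) exceeded Igfbp7 (1337 RPKM). Igf1, Igf1r and Igf2r did not exceed 21.3 RPKM in any library. Igfbp6 had reads in 1 library only. The 8 genes other than Igfbp6 passed the low-count filter.

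**Figure D1:**
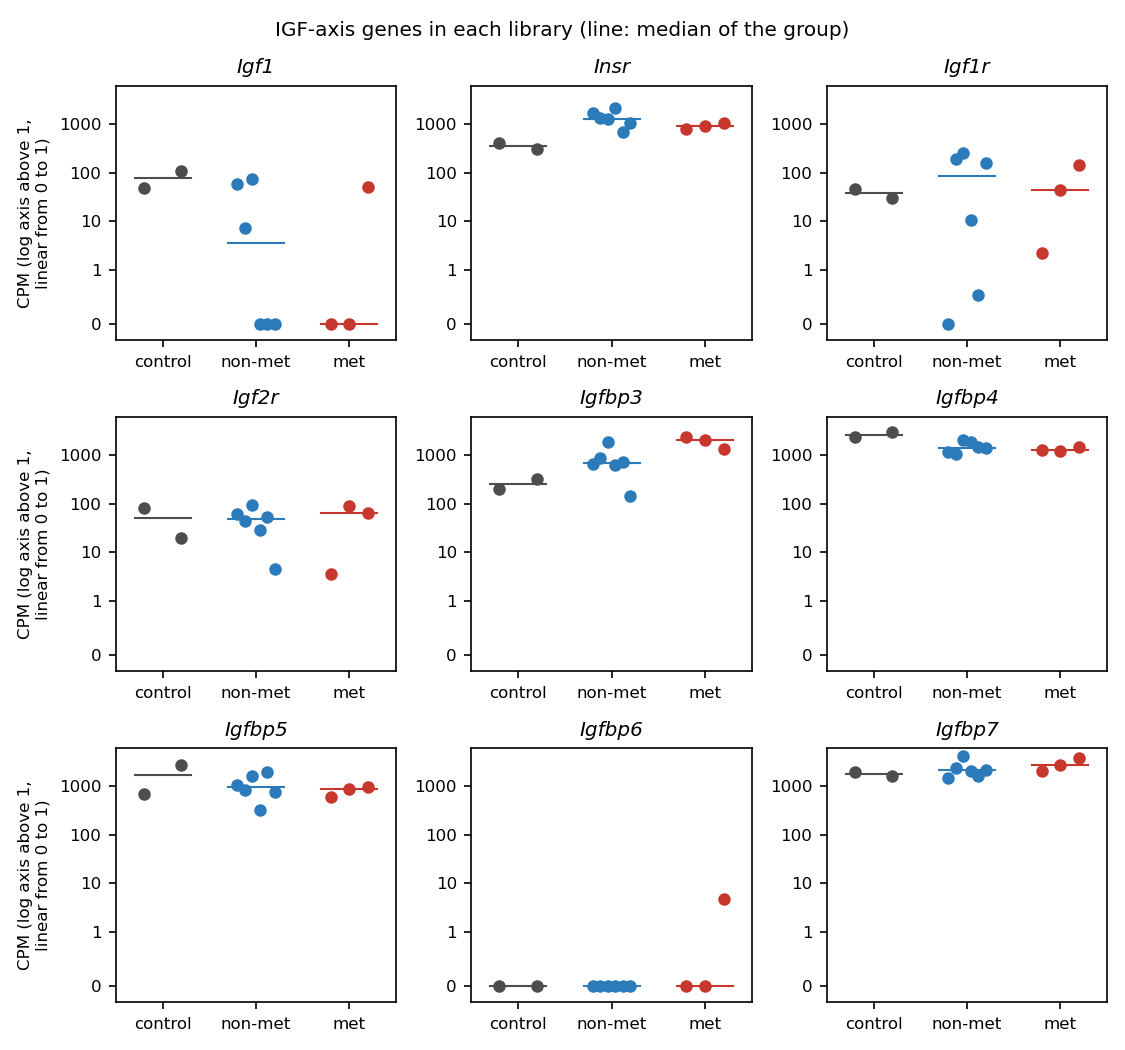
Level of each of the 9 genes in every library, in TMM-scaled CPM on an axis that is logarithmic above 1 and linear from 0 to 1. Each point is 1 library and each line is the median of its group (control n = 2, non-met n = 6, met n = 3). Igfbp3 lies higher in the met than in the control libraries and Igfbp4 lower, the Insr controls lie below all other libraries, and Igf1 and Igf1r reach 0 in some libraries.

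Against control, Insr was higher and Igfbp4 lower in both met and non-met ECs, and Igfbp3 was higher in met ECs. With voomLmFit, the moderated linear model named by the study, 4 of the 8 tested genes passed an adjusted p of 0.05 between met and control (Igfbp3, Igfbp7 and Insr higher, Igfbp4 lower), beside 1.20% of all tested genes. For non-met against control, 2 genes passed (Insr higher, Igfbp4 lower), beside 0.636%, and for met against non-met, 1 gene passed (Igfbp7 higher), beside 0.418%. Other tools called fewer. The edgeR quasi-likelihood test called 0 of 8 between met and non-met (0.142% of all), Igfbp3 between met and control (0.0837%) and 0 of 8 between non-met and control (0.117%). DESeq2 called 0 (2.73%), Igfbp3 (1.91%) and Insr (2.21%) in the same order, and limma-trend called 0 (0.0167%), 0 (0.0753%) and Insr (0.0670%). At an unadjusted p under 0.05, the quasi-likelihood test had 1, 4 and 3 of the 8 genes in this order, beside 8.39%, 4.62% and 4.31% of all tested genes. DESeq2 had 2, 3 and 3, beside 9.46%, 6.33% and 6.46%, and limma-trend had 1, 4 and 3, beside 4.70%, 4.96% and 4.47%. Every met library lay above or below every control library for Igfbp3, Igfbp4, Igfbp7 and Insr, as for 20.7% of all tested genes. Every non-met library did so for Igfbp4 and Insr, as for 6.29%, and none of the 8 genes separated met from non-met libraries, as 1.98% did. For single genes below, the voomLmFit log2 fold change is given with its standard error (SE) and the Benjamini-Hochberg adjusted p over all tested genes. This model weights each observation, and for some genes 1 library carried nearly all the weight of its group. On simulated data it also called genes that had not been changed.

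**Figure D2:**
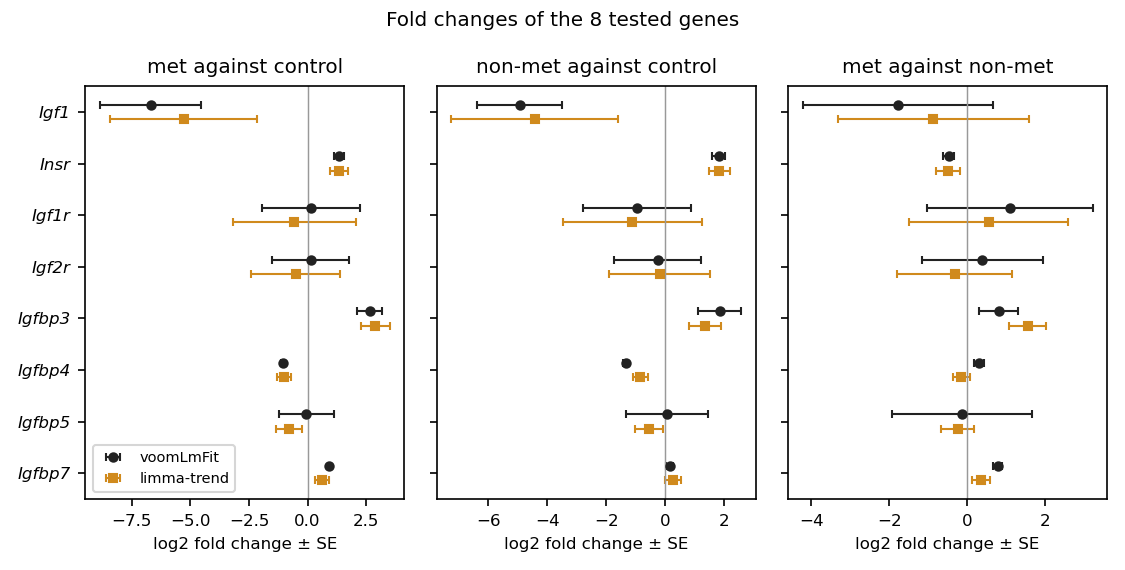
Log2 fold change with its SE (bars) of the 8 tested genes in the 3 comparisons, by voomLmFit (circles) and limma-trend (squares). The horizontal axes differ between panels. Insr and Igfbp3 lie to the right of 0 against control in both fits, and the bars of Igf1r and Igf2r cross 0 in all panels.

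Igf1 was the only ligand with reads, because Igf2, Ins1 and Ins2 were at 0 in every library. Igf1 (Entrez 16000, chr10:87858265-87937047 of GRCm38) encodes the secreted growth factor that stimulates its receptor in bone and vessels. It stood at 49.3 and 107 CPM in the controls. In the non-met libraries 1 to 3 it stood at 58.4, 7.26 and 74.3 CPM, and non-met 4 to 6 had no read. Met 3 held 49.7 CPM, from 433 reads, whereas met 1 and 2 had no read. Igf1 was thus found in both control libraries and in 4 of 9 libraries from burdened mice, and the groups overlapped. The log2 fold change was -4.93 (SE 1.44, adjusted p = 0.0923 by voomLmFit) in non-met and -6.71 (SE 2.16, adjusted p = 0.117) in met against control, and neither passed the test. The size depended on the tool, since the quasi-likelihood test gave -1.73 and -2.23 and DESeq2 -1.83 and -2.40. Without met 3 the value for met against control was -8.66. Non-met 1 and 5 came from the same mice and gave 58.4 and 0 CPM. Presence and absence of Igf1 therefore also differed between libraries of 1 pool. RNA from fewer Igf1-expressing cells and less Igf1 RNA per cell cannot be told apart in these bulk libraries, for this or any other gene.

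Insr (Entrez 16337, chr8:3150922-3279649), which encodes the insulin receptor, was the most abundant receptor of the family and was higher in burdened marrow. The controls held 414 and 303 CPM. The 6 non-met libraries held 1660, 1312, 1237, 2080, 689 and 1039 CPM, and the 3 met libraries 788, 907 and 1021 CPM. No library from a burdened mouse fell to the level of a control, and the lowest of them, non-met 5, lay next above the controls. Against control, Insr rose by 1.81 on the log2 scale in non-met (SE 0.21, adjusted p = 1.43e-05 by voomLmFit) and by 1.34 in met (SE 0.22, adjusted p = 0.00100). For non-met against control, DESeq2 gave an adjusted p of 7.31e-05, limma-trend 0.0299 and the edgeR quasi-likelihood test 0.0705. For met against control the other 3 tools gave adjusted p from 0.189 to 0.886, and the voomLmFit call was lost without met 3 (1.15, adjusted p = 0.151), which carried 72.2% of the met weight. Without control 1 neither Insr call passed, although the log2 fold changes were larger, at 2.19 in non-met (adjusted p = 0.0834) and 1.75 in met (adjusted p = 0.176). With the term for the keratin split both passed, at 1.89 in non-met (adjusted p = 4.09e-06) and 1.67 in met (adjusted p = 0.0472). Among the libraries with low keratin traces, the controls held 303 to 414 CPM and non-met 1 and 2 held 1312 to 1660 CPM.

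Met libraries did not reach the Insr level of the non-met library from the same pool in any of 4 pairings. The pairings gave differences of -0.74 and -0.40 for pool 2, -0.45 for pool 3 and -1.03 for pool 4 in log2 CPM. In 5.67% of all tested genes met was lower in every pairing. The model over all libraries gave -0.48 (SE 0.13), which did not pass the test (adjusted p = 0.165 by voomLmFit), and the group ranges overlapped. It passed with RLE scaling (-0.57, adjusted p = 0.0485) and without control 1 (-0.44, adjusted p = 0.0288), and was -0.22 with the term for the keratin split (adjusted p = 0.932). The pairings of pool 2 share the library met 1. Summed granulocyte markers were also lower in met 1, 2 and 3 (204, 68.8 and 35.5 CPM) than in every non-met library (at least 397 CPM). Unlike Insr, they did not lie above both controls in the met libraries. Their part in the Insr difference was not tested.

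Igf1r and Igf2r were far lower than Insr and varied strongly within groups. Igf1r (Entrez 16001, chr7:67952257-68233668), the kinase receptor of IGF1 and IGF2, was at 46.1 and 29.9 CPM in the controls. Non-met 2, 3 and 6 held 187, 255 and 161 CPM, whereas non-met 1, 4 and 5 held 0, 10.9 and 0.53 CPM. The met libraries held 2.20, 44.3 and 144 CPM. The burdened libraries thus lay on both sides of the controls, and 4 of them had at most 6 reads. Non-met 2 and 6, which share mice, both had a high level. The log2 fold changes were 0.14 for met against control, -0.95 for non-met against control and 1.09 for met against non-met, with SEs of 1.83 to 2.12 (adjusted p at least 0.757 by voomLmFit). These directions were not stable. For met against non-met the quasi-likelihood test gave -0.69, DESeq2 -0.79 and the mouse pool as a fixed block -2.27, and met was lower in 3 of 4 pairings within pools. For non-met against control the quasi-likelihood test and DESeq2 both gave 1.43.

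Igf2r (Entrez 16004, chr17:12682406-12769706), the scavenging receptor of IGF2, overlaps the non-coding gene Airn. It held 79.9 and 19.8 CPM in the controls, and 60.9, 43.0, 95.8, 28.9, 53.6 and 4.44 CPM in the non-met libraries. Met 1 held 3.52 CPM and met 2 and 3 held 89.4 and 64.9 CPM. The ranges of the 3 groups overlapped, with 5 and 8 reads behind the low values of non-met 6 and met 1. No comparison passed the test, with SEs of 1.47 to 1.64 on log2 fold changes of -0.24 to 0.39 (adjusted p at least 0.922 by voomLmFit). Airn had 288 reads over all libraries, and whether the counting used strand is not given in the sources used here, so their reads may not be fully separated.

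Insr exceeded Igf1r per length in every library with more than 3 Igf1r reads. The ratio of their RPKM was 11.5 and 13.0 in the controls, 6.20 to 245 in 4 non-met libraries and 458, 26.2 and 9.08 in the met libraries. The ratio thus moved mainly with Igf1r, whose level spanned 0 to 21.3 RPKM, whereas that of Insr spanned 32.4 to 222 RPKM.

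Igfbp3 (Entrez 16009, chr11:7206086-7215498), which encodes the main IGF carrier of serum, rose in met ECs. The controls held 196 and 313 CPM. The non-met libraries held 642, 852, 1856, 615, 722 and 142 CPM. Met 1, 2 and 3 held 2361, 2023 and 1329 CPM. All met libraries lay above both controls, 5 of 6 non-met libraries lay above the controls, and non-met 6 lay below them. Mean log2 CPM was 7.95 ± 0.48 (SD, n = 2) in control, 9.31 ± 1.21 (n = 6) in non-met and 10.85 ± 0.43 (n = 3) in met ECs. Met exceeded control by 2.65 on the log2 scale (SE 0.53, adjusted p = 0.00656 by voomLmFit). The edgeR quasi-likelihood test gave 2.90 with an adjusted p of 0.00598, DESeq2 2.80 with 0.00106, and limma-trend 2.90 with 0.0544. Met 3 carried 93.2% of the met weight, and without it the log2 fold change was 3.25 (adjusted p = 2.38e-08). Without control 1 the call was lost, at 2.14 (adjusted p = 0.725). The term for the keratin split gave 2.54 with the call also lost (adjusted p = 0.436). Summed endothelial and arterial markers were also higher in every met than in every control library, whereas summed sinusoidal markers overlapped. The part of these markers in the differences of Igfbp3 and Igfbp7 was not tested.

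Non-met ECs were intermediate for Igfbp3. The log2 fold change was 1.85 against control (SE 0.73, adjusted p = 0.203 by voomLmFit), and met exceeded non-met by 0.80 (SE 0.50, adjusted p = 0.75), so neither passed the test. Without met 3 both passed, at 1.87 (adjusted p = 0.00683) and 1.39 (adjusted p = 0.0170). Within pools, met was above non-met in 4 of 4 pairings, as in 7.60% of all tested genes. The differences in log2 CPM were 1.47 and 4.05 for pool 2, 0.12 for pool 3 and 1.11 for pool 4. Non-met 2 and 6 of the same mice differed by 2.58, more than met and non-met did in pools 3 and 4. Among the libraries with low keratin traces, non-met 1 and 2 held 642 to 852 CPM and the controls 196 to 313 CPM.

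**Figure D3:**
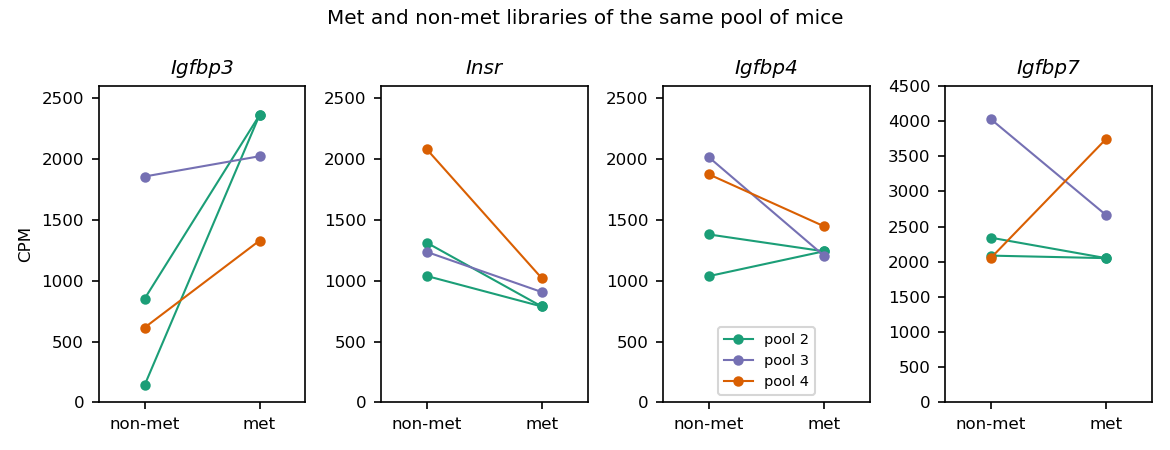
CPM of Igfbp3, Insr, Igfbp4 and Igfbp7 in non-met and met libraries of the same mouse pool, on linear axes from 0 (the axis of Igfbp7 reaches higher). Each line joins 2 libraries, and the 2 lines of pool 2 meet in met 1. The lines climb for Igfbp3 and descend for Insr in 4 of 4 pairings, whereas those of Igfbp4 and Igfbp7 run in both directions.

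Igfbp4 (Entrez 16010, chr11:99040005-99052655) encodes an inhibitory binding protein that PAPP-A cleaves, and it was lower in all burdened libraries. The controls held 2324 and 2891 CPM. The non-met libraries held 1149, 1038, 2014, 1874, 1444 and 1380 CPM, and the met libraries 1242, 1207 and 1448 CPM. The highest burdened library, non-met 3, remained below the lower control. Igfbp4 fell by 1.03 on the log2 scale in met (SE 0.09, adjusted p = 3.68e-08 by voomLmFit) and by 1.33 in non-met against control (SE 0.09, adjusted p = 1.64e-09). The unweighted means of log2 CPM differed less between non-met and control, by -0.85, and non-met 2 carried 63.1% of the weight of its group. The edgeR quasi-likelihood test, DESeq2 and limma-trend gave the same direction with adjusted p from 0.139 to 0.886, and did not call it. With the term for the keratin split, Igfbp4 stood at -1.71 in met against control with the call lost (adjusted p = 0.0972), and at -1.33 in non-met with the call kept (adjusted p = 0.00103). Met and non-met did not differ by the test (0.30, SE 0.13, adjusted p = 0.592), although without control 1 or control 2 this difference was called (0.40 and 0.36). Its direction was not stable, since the edgeR quasi-likelihood test, DESeq2, limma-trend and the mouse pool as a fixed block gave -0.19, -0.35, -0.16 and -0.47, none of them called. Within pools met was lower than non-met in 3 of 4 pairings, with differences in log2 CPM from -0.74 to 0.26. Among the libraries with low keratin traces, non-met 1 and 2 held 1038 to 1149 CPM against 2324 to 2891 CPM in the controls.

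Igfbp3 and Igfbp4 moved in opposite directions against control, and the bases before their start sites are shown for this reason. The RefSeq table of GRCm38.p6 gave a window around a start site for 8 of the 9 genes. The sequences below are the 250 bases before the start, from 5′ to 3′ on the strand of the gene (chr11:7213924-7214173, minus strand, for Igfbp3 and chr11:99040994-99041243, plus strand, for Igfbp4). Both starts lie inside the annotated span of their gene. Capitals mark the searched TATA-type motifs.
Igfbp3: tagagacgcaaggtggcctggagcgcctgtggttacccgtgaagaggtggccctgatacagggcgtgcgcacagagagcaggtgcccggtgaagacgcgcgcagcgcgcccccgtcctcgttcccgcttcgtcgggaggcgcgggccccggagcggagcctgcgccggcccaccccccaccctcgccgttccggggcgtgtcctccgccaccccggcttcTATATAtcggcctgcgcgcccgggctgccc
Igfbp4: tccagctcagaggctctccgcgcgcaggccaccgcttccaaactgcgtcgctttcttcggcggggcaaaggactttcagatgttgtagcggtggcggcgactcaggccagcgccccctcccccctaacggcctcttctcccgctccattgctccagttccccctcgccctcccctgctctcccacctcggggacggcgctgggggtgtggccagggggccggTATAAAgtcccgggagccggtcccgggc

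The motif TATATA began 30 bases before the start of Igfbp3, and TATAAA began 28 bases before the start of Igfbp4. Both strands of the full windows of 300 bases were searched. Among all 32851 windows of this length, TATATA was held by 5.67% and TATAAA by 13.6%. In the windows of the 8 genes, the other match was TATAAA on the opposite strand of Igfbp6, beginning 148 bases before the start. The FOXO core TGTTTAC, held by 3.65% of all windows, had no match in the 8. A match is a description of these letters and not evidence of a functional site.

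Igfbp5 (Entrez 16011, chr1:72858065-72874865) encodes a binding protein that is abundant in bone and attaches to its matrix. The 2 controls stood far apart, at 689 and 2702 CPM. The non-met libraries held 1064, 840, 1610, 320, 1945 and 739 CPM, and the met libraries 602, 861 and 947 CPM. All groups overlapped, and control 1 lay below 5 of the 6 non-met libraries. The log2 fold change was -0.05 (SE 1.17) for met and 0.07 (SE 1.39) for non-met against control, and -0.12 (SE 1.80) between met and non-met (adjusted p at least 0.975 by voomLmFit). Without control 1, Igfbp5 was lower in both against control 2, at -1.53 in met and -1.46 in non-met. The direction thus depended on which control was used, since without control 2 the values were 0.44 and 0.53. Each of these fits has 1 control, whose variation is taken to be like that of the other groups.

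**Figure D4:**
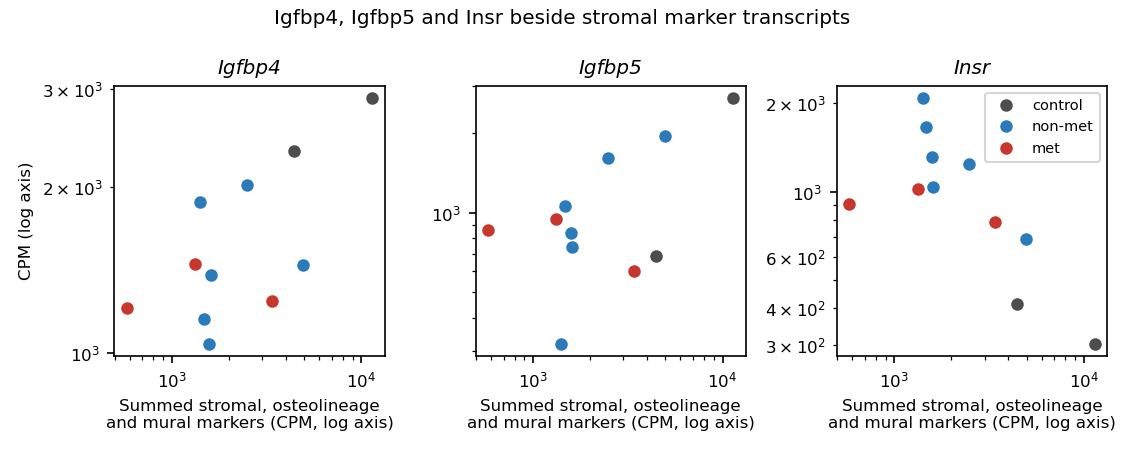
CPM of Igfbp4, Igfbp5 and Insr against the summed CPM of 20 stromal, osteolineage and mural cell markers in the 11 libraries, on logarithmic axes. Each point is 1 library. Control 2 lies at the far right of each panel, with the highest Igfbp4 and Igfbp5 and the lowest Insr.

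Stromal marker transcripts varied with several of the genes. Over the 11 libraries, log2 CPM and the log2 sum of the stromal list had a Pearson r of 0.67 for Igfbp4, 0.55 for Igfbp5 and -0.74 for Insr (Spearman 0.49, 0.32 and -0.65). Igfbp7 had a Pearson r of -0.43 (Spearman -0.52), and the remaining genes had a Pearson r from -0.36 to 0.33. These are descriptions of libraries that share groups and pools. Cxcl12 made up 34.6% to 76.3% of the sum in a library, and 76.3% in control 2. Without Cxcl12 the Pearson r was 0.46 for Igfbp4, 0.49 for Igfbp5 and -0.74 for Insr (Spearman 0.42, 0.21 and -0.71). The list had from 6 to 18 of its 20 markers above 3 reads in a library, and in control 2 it had 10, with 9 at 0. Without control 2, in which the list was highest, Igfbp4 was still lower against control by voomLmFit, at -0.67 in met (adjusted p = 7.04e-06) and -1.04 in non-met (adjusted p = 1.05e-08). Insr was still higher without it, at 1.30 in met (adjusted p = 1.80e-08) and 1.75 in non-met (adjusted p = 1.17e-12). In these fits control 1 alone stands for the controls, and its variation is taken to be like that of the other groups. Control 1 also held 4436 CPM of the list, more than 8 of the 9 burdened libraries, so the part of stromal RNA in the remaining difference was not tested.

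Igfbp7 (Entrez 29817, chr5:77349240-77408045) encodes angiomodulin, a vessel matrix protein that binds IGFs weakly. It had the highest mean RPKM of the family over the 11 libraries, although Igfbp4 exceeded it in control 2. The controls held 1962 and 1621 CPM. The non-met libraries held 1478, 2342, 4025, 2058, 1616 and 2088 CPM, and the met libraries 2052, 2665 and 3746 CPM. Met libraries lay above both controls, met 1 by a small margin, while the highest single value was in non-met 3. Igfbp7 rose by 0.94 on the log2 scale in met against control (SE 0.05, adjusted p = 5.38e-13 by voomLmFit) and by 0.79 against non-met (SE 0.12, adjusted p = 0.000377). Met 3 carried 99.9% of the met weight in both, and control 1 carried 97.6% of the control weight. Without met 3 the values were 0.43 (adjusted p = 0.234) and 0.26 (adjusted p = 0.749), and with the term for the keratin split they were 0.24 (adjusted p = 0.925) and 0.21 (adjusted p = 0.971). Without control 1 the call against control was lost at 1.20 (adjusted p = 0.400). The other 3 tools gave 0.57 to 0.66 against control and 0.18 to 0.35 against non-met, with adjusted p of 0.886 or more. With the mouse pool as a fixed block, met was lower than non-met, at -0.42 and not called, and met was lower in 3 of 4 pairings. With the pool as a random block, Igfbp7 was still called higher in met than non-met. The 2 pool models thus disagreed, and 24 of 25 refits gave met as higher. The gene overlaps Polr2b, whose reads came to between 0.0386% and 8.13% of those of Igfbp7 in a library. As for Igf2r and Airn, the reads of the overlapping genes may not be fully separated.

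Igfbp6 (Entrez 16012, chr15:102144186-102149512), whose protein prefers IGF2 to IGF1, had 42 reads in met 3, which came to 4.82 CPM. It had no read in the other 10 libraries and was not tested. Zero reads allow up to 3 reads in a library, which came to 0.147 CPM in control 1 and 5.43 CPM in non-met 4 on the same scale. The value of met 3 was thus below the limit of the shallowest library and above that of each other library, and these limits cover counting error only.

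Set side by side per length, the shares of Igfbp4 and Igfbp2 among the binding proteins did not overlap between the 2 controls and the 9 burdened libraries, whereas those of Igfbp3, Igfbp5 and Igfbp7 did. No test was run on the shares, and no value over all genes stands beside this separation. Igfbp2, a binding protein added to the sum as the only other family member with reads, was counted with Igfbp3 to Igfbp7. Igfbp7 made up 39.3% to 60.9% of the summed RPKM in every library. Igfbp4 made up 37.8% and 41.1% in the controls, 15.3% to 28.2% in non-met and 12.8% to 17.1% in met libraries. Igfbp3 made up 2.69% and 3.76% in the controls, 2.05% to 11.9% in non-met and 9.90% to 27.5% in met libraries. Igfbp2 made up 1.10% and 2.30% in the controls and 4.34% to 18.0% in the burdened libraries. Igfbp5 made up 3.96% and 13.6% in the controls and 1.70% to 11.7% in the burdened libraries. The sum itself ranged from 2552 to 6354 RPKM and was not lowest in the controls, at 2971 and 3402 RPKM. The shares add to 100% in a library and so are not independent of each other.

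**Figure D5:**
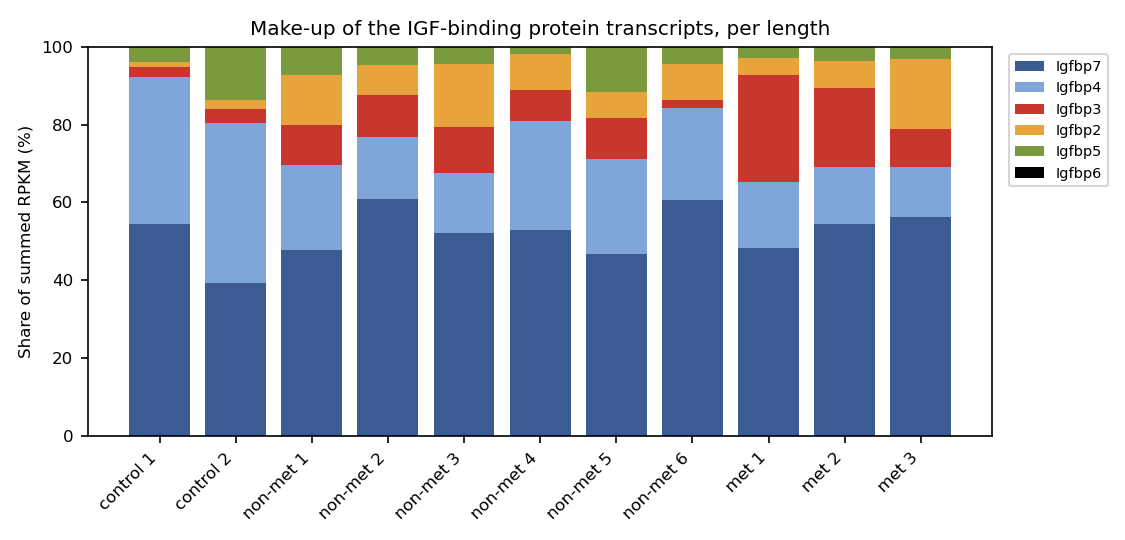
Share (%) of each binding protein in the summed RPKM of Igfbp2 to Igfbp7, 1 bar per library. The Igfbp4 share is highest in the controls (37.8% and 41.1%), and the Igfbp3 share is highest in met 1 (27.5%) and met 2 (20.5%).

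Of 72 further genes of IGF and insulin signalling on a list, 59 were tested. With voomLmFit 0 of the 59 were called between met and non-met, where 3 had an unadjusted p under 0.05, beside 7.24% of all tested genes. Stc1 and Adamts1 were called higher and Pappa lower between met and control, and Stc1 higher and Esm1 lower between non-met and control. These were 3 and 2 of the 59, beside 1.20% and 0.636% of all tested genes, and 13 and 17 of the 59 had an unadjusted p under 0.05, beside 14.1% and 17.0%. The median log2 fold change of the list was 0.37, 0.10 and -0.26 in these 3 comparisons, beside 0.07, -0.09 and -0.33 over all tested genes. Its sign depended on the tool, since the list stood at 0.12, -0.04 and 0.08 with the quasi-likelihood test, at -0.10, -0.10 and 0.30 with DESeq2 and at 0.28, -0.08 and -0.30 with limma-trend. The edgeR quasi-likelihood test called 0 of the 59 in each comparison, with 3, 3 and 4 at an unadjusted p under 0.05. DESeq2 called Eif4ebp1, a translation inhibitor downstream of mTOR, lower in met than non-met, and called Igfbp2 and Stc1 higher in both comparisons with control. Limma-trend called 1 gene, Stc1, higher in non-met than control.

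Of the genes called by voomLmFit, Pappa, Stc1 and Adamts1 were listed as proteases of binding proteins and their inhibitors, and Esm1 among other proteins with an IGFBP-type domain. Pappa, the protease of IGFBP4, held 50.1 and 42.8 CPM in the controls and 21.3 CPM in non-met 6, and had no read in the other 8 libraries from burdened mice (adjusted p = 0.0406 for met against control by voomLmFit, and 0.457 to 0.886 by the other 3 tools). Stc1, which encodes stanniocalcin 1, an inhibitor of PAPP-A, held 11.1 and 0 CPM in the controls. It held 127 to 325 CPM in the non-met and 118 to 289 CPM in the met libraries, and the lowest of these exceeded both controls. Its adjusted p by voomLmFit was 0.0161 in non-met and 0.0120 in met against control, with 0.104 and 0.218 by the edgeR quasi-likelihood test. Adamts1, a matrix protease, held 557 and 459 CPM in the controls and 846 to 1233 CPM in met libraries, which differed by 0.70 on the log2 scale (SE 0.12, adjusted p = 0.000844 by voomLmFit and at least 0.643 by the others). Pappa, Stc1 and Igfbp4 thus separated the met from the control libraries, with Stc1 higher and Pappa and Igfbp4 lower in met. Other named genes did so too, among them Adamts1, Igfbp2, Igfbp3, Igfbp7 and Insr (higher) and Esm1 (lower). Of all tested genes, 20.7% separated met and 6.29% separated non-met from control libraries in either direction. Esm1, an endothelial proteoglycan with an IGFBP-type domain, held 124 and 214 CPM in the controls and 0 to 93.3 CPM in the 9 burdened libraries (adjusted p = 0.0417 for non-met against control by voomLmFit). The other 3 tools gave adjusted p of at least 0.936 for it.

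Igfbp2 was the most abundant binding protein outside the 9 genes. The controls held 43.5 and 104 CPM, the non-met libraries 253 to 1368 CPM and the met libraries 203, 362 and 1315 CPM. Every burdened library exceeded both controls. Separation from both controls in either direction was found for 20.7% of all tested genes in met and 6.29% in non-met libraries. The log2 fold change was 2.82 (SE 0.92, adjusted p = 0.126 by voomLmFit) in non-met and 3.59 (SE 0.91, adjusted p = 0.0545) in met against control, whereas DESeq2 gave adjusted p of 0.00363 and 0.0108.

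Apart from Esm1, no gene of the other roles was called by voomLmFit. The most abundant of each were Ccn1 among other proteins with an IGFBP-type domain (mean 173 RPKM), the adaptor Grb2 (39.5 RPKM), the kinase Akt1 (96.0 RPKM), the FOXO-regulated Txnip (438 RPKM) and Igf2bp2 among the IGF2 mRNA-binding proteins (1.00 RPKM). Txnip was higher in met than non-met by 1.50 (SE 0.35), just short of the threshold (adjusted p = 0.058 by voomLmFit), but by 0.06 with limma-trend. Ccn1 stood at -1.94 in met and -1.60 in non-met against control (adjusted p = 0.0708 and 0.0874). The remaining receptor of the family, Insrr, had reads in met 3 only, at 9.64 CPM.

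For the 5 genes with at least 10 reads in all libraries, the genes with the most similar pattern were sought by Pearson r of log2 CPM over the 11 libraries. Igfbp3 was most like Adamts4 (r = 0.88) and Pcdhga6 (0.88), and Igfbp4 most like Zfp385a (0.92) and Megf6 (0.91). Igfbp5 was most like St3gal3 (0.85) and Zcchc24 (0.84), Igfbp7 like Map1lc3b (0.94) and Efna4 (0.91), and Insr like Sema3a (0.83) and Fxyd5 (0.82). Pcdhga6, Zfp385a, Megf6, St3gal3 and Efna4 were at 0 CPM in at least 1 library. These values are the highest among 11947 other genes over 11 libraries that share groups and pools, and are given as a description.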

How the data were processed

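CD31hi EMCNhi ECs were profiled with a low-input full-length RNA kit and paired-end sequencing. The authors aligned reads to mm10 with Rsubread and deposited counts of reads per Entrez gene from featureCounts, not normalised. The series table and the 11 single tables held equal counts. Of 27179 rows, 25275 took symbols and coordinates from RefSeq GRCm38.p6 and 18 from GENCODE. Unnamed (1886), ribosomal RNA (35) and predicted (1797) rows, holding 1.95% to 15.7% of counts, were left out. Counts were scaled by TMM, and filterByExpr (minimum count 10, minimum total 15) kept 11948 genes. Groups and pools followed the labels.

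The 3 groups were fitted in 1 model with voomLmFit and sample weights (edgeR 4.0.16, limma 3.58.1, R 4.3.3), with Benjamini-Hochberg adjustment and a threshold of 0.05. Log2 values used a prior count of 2. The edgeR quasi-likelihood test, limma-trend and DESeq2 1.42.0 were alternatives. All 4 were tested on simulated data, in which voomLmFit and DESeq2 also called genes that had not been changed, and the other 2 seldom did. Met and non-met libraries of 1 pool came from the same mice per the labels, and their deviations from group means had Spearman correlations of -0.02 to 0.02.

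The members and all lists were chosen with earlier results of these data known. Named were all members, pathway genes called by voomLmFit in any comparison, the gene of highest mean RPKM in each role, Igfbp2 and Eif4ebp1 as calls of DESeq2, and the 2 genes most similar to each member with at least 10 reads in every library. Marker genes were named after their values were seen. Separate pools were separate mice, but libraries of 1 pool differ only by sampling within it, so p-values partly measure technical spread.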

Additional observations from a re-analysis of the deposited data

How the results depend on the processing

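Of 584 refitted log2 fold changes of single genes, 505 kept their direction and side of the threshold or moved by under 1 SE, 40 that were not called moved by more, 28 lost a call, 9 gained one and 2 reversed. Between met and non-met, the 1 member called became 0 with the edgeR quasi-likelihood test, DESeq2, limma-trend, the mouse pool as fixed replicate block or a term for the keratin split, and 2 with RLE scaling. Leaving out 1 library gave 1 to 3. Between met and control, the 4 called became 1 with the quasi-likelihood test, 1 with DESeq2, 0 with limma-trend and 1 with the keratin term, and 2 to 4 without 1 library (2 without control 1 or met 3). Between non-met and control, the 2 called became 0, 1 and 1 with the quasi-likelihood test, DESeq2 and limma-trend. The fixed pool block turned Igfbp7 in met against non-met to -0.42, and Igfbp4, not called, from 0.30 to -0.47. Fitted as a random replicate block in all comparisons, the pool changed no call of a member. A fixed block could not be fitted against control, whose pools hold no other group. Igfbp5 in non-met against control was 0.07 and ranged from -1.46 to 0.53 without 1 library. The cause was not tested. Calls over all genes moved by over 1.5 times in 37 of 73 refits. The 50 of met against non-met ranged from 2 with limma-trend to 326 with DESeq2, the 143 of met against control from 4 with the keratin term to 429 with no filter on low counts, and the 76 of non-met against control from 8 with limma-trend to 264 with DESeq2. The median log2 fold change of all genes in non-met against control was -0.33, and -0.54 when scaled by library size alone. Igf1, Igf1r, Igf2r and Igfbp6 had at most 8 reads in some libraries. In non-met 4, the shallowest, a level under 5.43 CPM could go undetected, whereas Igf1 in met 2 and Igf1r in non-met 1 were at 0 with limits of 0.569 and 0.541 CPM. The keratin split and leaving out control 2 were chosen after seeing the data.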
